A study of Mus musculus with 18 samples.

Results

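MiRNA levels were compared between mouse embryonic fibroblasts (MEF) that overexpressed the miR-17~92 cluster (OV) and MEF in which it was deleted (d/d). The members are all mature miRNAs in the table without spike-in scaling whose mean over the 9 MEF libraries of that table was at least 10 normalized counts. This kept 662 of 1204 listed miRNAs. The mean uses all 3 groups and not the difference between OV and d/d. The miRNAs just inside this limit were miR-1932 at 10.01, miR-7025-5p at 10.2 and miR-3076-3p at 10.2 normalized counts, and those just outside were miR-1966-5p at 9.996, miR-7070-5p at 9.97 and miR-3103-3p at 9.89.

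The study sequenced small RNAs from 18 mouse libraries in which miR-17~92 was floxed and intact (fl/fl), deleted or overexpressed. MEF have 3 libraries per group. Following the column names, DEL1, DEL2 and DEL3 stand for d/d, OV1, OV2 and OV4 for OV, and FL3, FL4 and FL5 for fl/fl. The design text calls the B cells isogenic and describes the MEF in the same way, and the labels give Eu-myc mice as the strain of every library, B cells and MEF alike. The labels used here do not say how the cluster was deleted or overexpressed, how many lines or embryos were used, or whether replicates were separate cultures. The p-values therefore measure the spread between these libraries, which may be technical, and a difference between genotypes and a difference between cell lines cannot be told apart. A separate MEF set has 3 libraries of d/d cells that carry an empty plasmid (called Empty), and splenic B cells have 1 library each of OV, fl/fl and d/d. These and the fl/fl MEF are given only as reference values.

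MicroRNAs are short RNAs cut from hairpin precursors by Drosha and then Dicer, and they repress mRNAs that pair with the seed, the bases near their 5′ end. The miR-17~92 transcript carries several hairpins of 4 seed families and is activated by MYC. Its products are known to promote cell cycle progression and survival, and relatives with the same seeds come from the miR-106b~25 cluster and from an X-linked cluster that begins with miR-106a.

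Reads on listed miRNAs ran from 17191892 to 24920911 per MEF library. No pair of replicates agreed within sampling noise, so each library counts as 1 sample. In the table scaled to spike-ins, RNAs of known amount added to each sample, the summed miRNA signal was 22604004, 24487932 and 21035370 normalized counts in OV, 12578491, 15038979 and 15806451 in d/d and 20880587, 22985009 and 19677387 in fl/fl. OV was thus 1.57-fold above d/d with no overlap (two-sided exact permutation test, p = 0.1, the smallest that 3 libraries against 3 can give). The table without spike-ins removes such a shared shift. Differences below are relative to the typical miRNA, and the spike-in table moves them up by a shared amount, with the median of all members at a log2 difference of 0.57 in place of 0.02.

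Of the 662 miRNAs, 347 differed between OV and d/d MEF (52.4%) in limma's test on log2(normalized count + 1) with Benjamini-Hochberg adjustment at 0.05, 177 higher in OV (26.7%) and 170 lower (25.7%). The 3 OV libraries lay wholly above the 3 d/d libraries for 191 miRNAs (28.9%) and wholly below for 194 (29.3%). By the fitted difference, 32 miRNAs that passed were at least 4-fold higher in OV, of which 10 were miR-17~92 products. At least 4-fold lower were 105, of which 87 came from the imprinted Dlk1-Dio3 region. Outside both loci, 167 of 564 miRNAs were higher and 83 lower, and the median was 0.14 (320 higher, 34 lower and 0.70 under spike-in scaling). Under spike-in scaling, 451 miRNAs passed (68.1%), 330 higher (49.8%) and 121 lower (18.3%), so the split between higher and lower depends on the scaling. With each library's median re-centred 31.4% were higher, and with edgeR on recovered reads 27.8%.

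**Figure D1:**
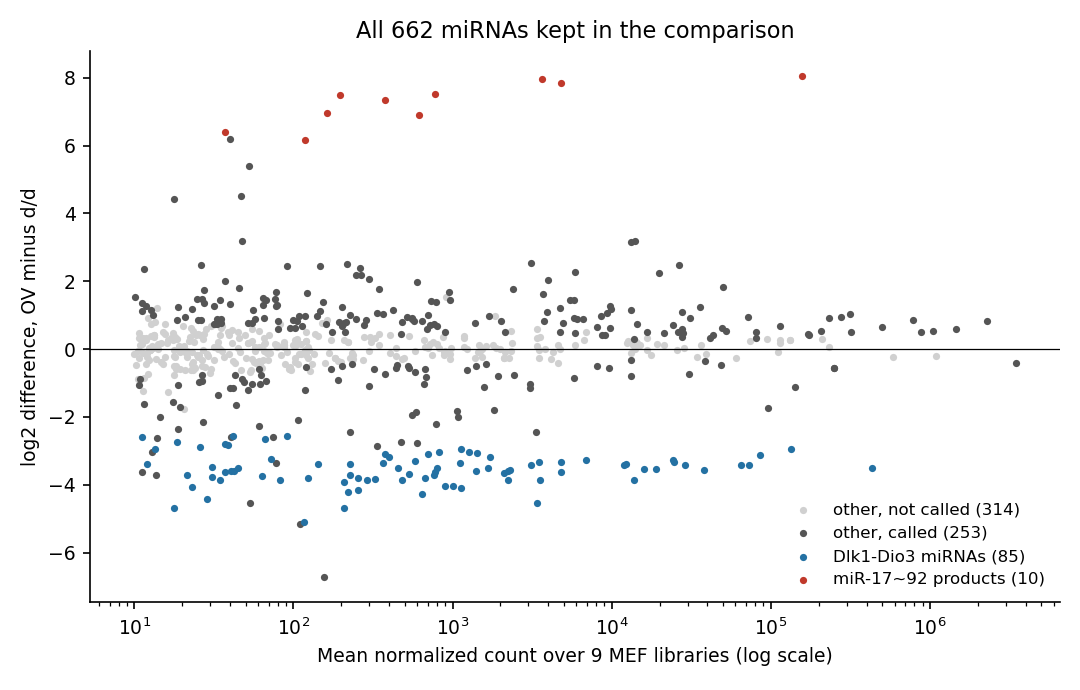
Log2 difference between OV and d/d MEF (vertical axis) against the mean normalized count over 9 libraries (horizontal log axis) for all 662 miRNAs, 1 point each. The 10 miR-17~92 products lie between 6.16 and 8.06, and the 85 miRNAs of the Dlk1-Dio3 list between −5.10 and −2.55.

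The mature sequences below are those of the cluster's main products and of the relatives that share their seeds, since the results on relatives turn on how alike these RNAs are. Sequences come from RefSeq's miRNA annotation (GRCm38.p6), in which 553 of the 662 members had an entry by name. They are written 5′ to 3′, with the seed (bases 2 to 8) in capitals.
miR-17-5p: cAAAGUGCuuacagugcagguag
miR-20a-5p: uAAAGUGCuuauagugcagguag
miR-106a-5p: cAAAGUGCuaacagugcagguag
miR-20b-5p: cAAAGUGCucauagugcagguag
miR-106b-5p: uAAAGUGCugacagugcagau
miR-93-5p: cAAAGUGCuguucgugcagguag
miR-18a-5p: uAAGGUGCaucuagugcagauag
miR-19a-3p: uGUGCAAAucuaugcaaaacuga
miR-19b-3p: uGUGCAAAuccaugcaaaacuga
miR-92a-3p: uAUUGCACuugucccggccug
miR-25-3p: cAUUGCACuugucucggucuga
miR-92b-3p: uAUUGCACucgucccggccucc
The top 6 share the seed AAAGUGC, and the last 3 share AUUGCAC. Counted from 1 at the 5′ end, miR-106a-5p differs from miR-17-5p by U10A alone, and miR-20b-5p differs from miR-20a-5p by U1C and U10C. Over the shared 21 bases, miR-92b-3p differs from miR-92a-3p by U10C and G21C.

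The labelled genotypes were checked by the cluster itself. Its hairpins lie in exons of the noncoding host gene Mir17hg on chromosome 14, from 115043671 to 115044506 on the plus strand (GRCm38.p6). Summed over its mature products, the cluster took 2.09%, 2.31% and 2.24% of reads in OV1, OV2 and OV4, 0.511%, 0.338% and 0.377% in the fl/fl libraries, and 0.00998%, 0.00944% and 0.00746% in DEL1 to DEL3. The groups did not overlap, and the total was 264-fold higher in OV than in d/d (log2 8.04, exact permutation p = 0.1; 249-fold to 276-fold without any 1 library, and 391-fold in the spike-in table). In Empty d/d MEF, sequenced separately, the share was 0.00128% to 0.00200%. All 10 kept products, of 11 listed, rose in OV.

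MiR-92a-3p, which pairs through the AUUGCAC seed, was the most abundant product in every group. It stood at 354688, 437911 and 399042 normalized counts in OV against 1548, 1594 and 1326 in d/d, with fl/fl at 90491, 60191 and 66451, a log2 difference of 8.06 (SE 0.158, limma adjusted p = 3.97e-11). MiR-17-5p, known to repress inhibitors of the cell cycle, stood at 13434, 9879 and 9980.1 in OV against 50.5, 53.03 and 37.2 in d/d, with fl/fl at 3029, 3704 and 3164, a log2 difference of 7.86 (SE 0.18, limma adjusted p = 9.71e-11). In both cases the 3 groups formed separate steps, with fl/fl nearer to OV than to d/d on the log scale.

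MiR-20a-5p had 9936, 8359 and 8184 normalized counts in OV against 37.7, 37.0 and 28.7 in d/d (log2 7.96, limma adjusted p = 3.95e-11). MiR-19a-3p and miR-19b-3p had log2 differences of 6.89 and 7.51. MiR-18a-5p had the smallest difference of the 10, at 391, 189 and 205 in OV and 2.13, 2.18 and 3.19 in d/d (log2 6.16), while its opposite arm miR-18a-3p was higher by 7.35. The passenger arms were also high in OV, with miR-17-3p at 6.95 and miR-92a-1-5p at 7.50. MiR-20a-3p was at 0 reads in all 3 d/d libraries and had 127, 92.7 and 48.3 normalized counts in OV, which is at least 35.7-fold higher with 3 reads per d/d library as the limit.

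MiR-19b-3p and miR-92a-3p are also made from hairpins of that X-linked cluster, so their d/d reads cannot be assigned to 1 locus. MiR-17-5p, with a single hairpin, still had 1.96 to 3.01 RPM (reads scaled to equal library totals) in d/d MEF and 0.461 to 0.781 in Empty d/d MEF, against 495.2 to 732 in OV. These few reads set the size of each fold change against d/d, and their source was not tested.

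**Figure D2:**
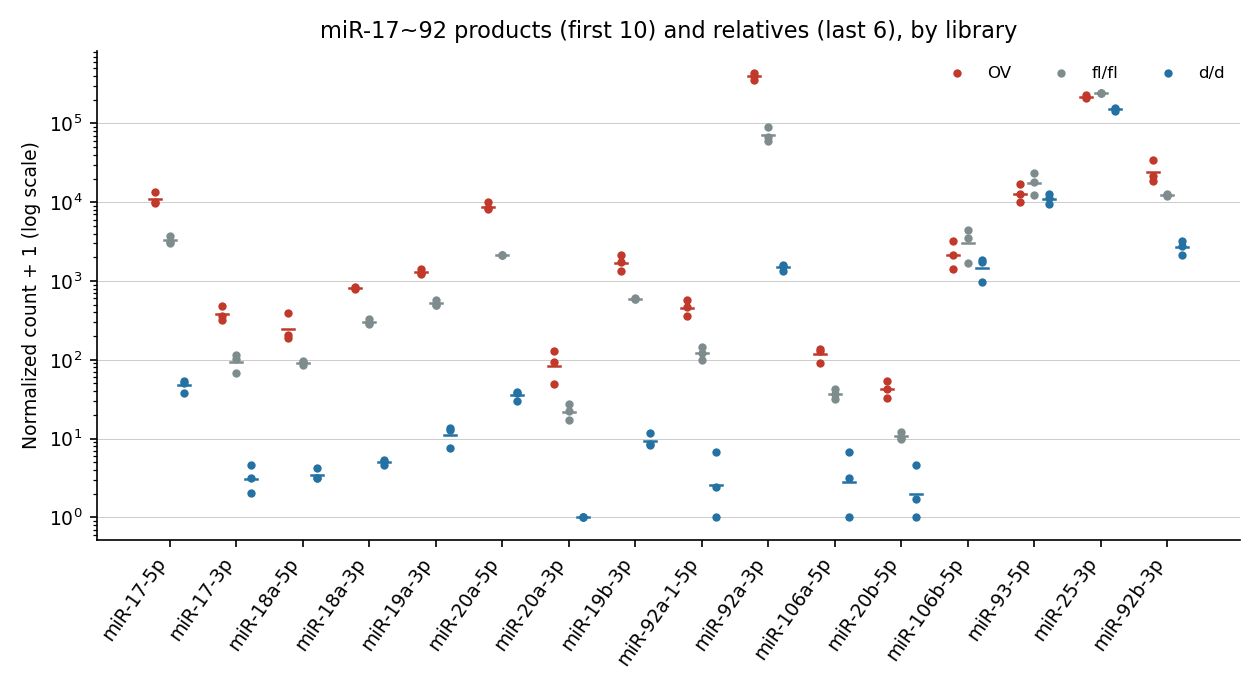
Normalized count + 1 (log axis) of the 10 miR-17~92 products and of 6 relatives in each MEF library, 1 point per library in red (OV), grey (fl/fl) and blue (d/d), with bars at the mean of the log values. Each product steps down from OV to fl/fl to d/d, while the points of miR-93-5p and miR-106b-5p overlap between groups.

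Among the relatives, miR-106a-5p and miR-20b-5p rose with the cluster and the 5p guides of miR-106b~25 did not pass the test. MiR-106a-5p had 137, 90.4 and 129.6 normalized counts in OV and 5.69, 2.18 and 0 in d/d (log2 5.41, limma adjusted p = 1.26e-05). MiR-20b-5p had 41.7, 32.0 and 52.73 in OV and 3.55, 0.726 and 0 in d/d (log2 4.41, limma adjusted p = 3.22e-05). With fl/fl at 0.457 to 0.591 RPM, its mean over the fl/fl and d/d libraries was under 10 normalized counts. MiR-20b-5p thus passed the minimum only through OV, where it is high. The count of miR-106a-5p was 1.07% of that of miR-17-5p in OV, 5.59% in d/d and 1.09% in fl/fl. The count of miR-20b-5p was 0.478% of that of miR-20a-5p in OV, 4.14% in d/d and 0.460% in fl/fl. Given the near-identical sequences, reads of these pairs could be split by the counting, and both values are uncertain.

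In the miR-106b~25 cluster, which lies within Mcm7, 2 of 6 members rose and none fell, beside 26.7% and 25.7% of all members. Under spike-in scaling 5 of 6 rose, beside 49.8% of all members. MiR-25-3p stood at 209760, 218648 and 229901 in OV and 146171, 157707 and 154216 in d/d (log2 0.52, limma adjusted p = 0.000271), with fl/fl at 243085, 246612 and 243950, above both. MiR-106b-3p was higher by 0.71. The guides miR-93-5p and miR-106b-5p had log2 differences of 0.22 and 0.54 with overlapping libraries and did not pass (adjusted p = 0.483 and 0.287). In the spike-in table both passed, at 0.79 and 1.11. MiR-32-5p, another RNA with the seed of miR-92a-3p, had 0.45 and did not pass (adjusted p = 0.0877).

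MiR-92b rose on both arms. MiR-92b-3p stood at 18450.2, 21614 and 34359.7 normalized counts in OV against 2797, 3241 and 2147 in d/d, with fl/fl at 12664, 12184 and 11841 (log2 3.15, SE 0.221, limma adjusted p = 1.13e-06). MiR-92b-5p stood at 15538, 24099 and 36457 in OV against 2291, 2563 and 3047 in d/d, with fl/fl at 13121, 14477 and 14281 (log2 3.19, limma adjusted p = 2.11e-06). The hairpin lies on chromosome 3 from 89227116 to 89227198 (GRCm38.p6), away from miR-17~92. The 5p arm is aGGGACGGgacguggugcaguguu, which differs from miR-92a-1-5p at 16 of 23 positions compared without gaps, whereas the 3p arm is close to miR-92a-3p. The 3p count was 6.25% of that of miR-92a-3p in OV and 183% in d/d.

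The Dlk1-Dio3 region on chromosome 12 carries a large miRNA cluster, expressed from the maternal chromosome together with the noncoding RNAs Meg3, Rian and Mirg. By hairpin position 88 members lie in it, of which 85 are on the list used here. Of these 85, 84 were lower in OV, none was higher, and all 85 lay below d/d without overlap, with a median log2 difference of −3.52 against 0.02 for all members. In the spike-in table the count was again 84 and the median −2.96. Among all 662 members 25.7% were lower and 29.3% lay wholly below d/d, and 18.3% were lower in the spike-in table. The remaining miRNA of the list was miR-666-3p, at 13.9, 2.29 and 0 in OV and 18.5, 16.7 and 29.8 in d/d (log2 −2.59, adjusted p = 0.0644). This pattern was known when the list was chosen. For 12 of the 85 the mean over the OV and fl/fl libraries was under 10 normalized counts, so that they passed the minimum only through d/d. The other 73 were all lower, with a median of −3.51.

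Together these miRNAs took 14.2%, 12.8% and 13.8% of reads in the d/d libraries, and 1.52%, 1.65% and 0.745% in OV1, OV2 and OV4. The fl/fl libraries stood at 2.56%, 2.12% and 2.24%, near OV, and Empty d/d MEF at 12.8% to 13.0%, near d/d. The high level is thus seen in both sets of d/d libraries. In B cells the region took 0.00603% of reads in OV, 0.0409% in d/d and 0.0106% in fl/fl, with 1 library each. OV4 was the lowest OV library for 80 of the 85 miRNAs, and without it the median was −3.13 with 84 still lower. In such bulk samples, fewer cells that express the region and less RNA per cell cannot be told apart.

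All 3 groups of hairpins in the region fell, beside 25.7% of all members that were lower. The Rtl1 antisense miRNAs, which are known to cut the mRNA of the paternally expressed Rtl1, were lower in 10 of 10 cases with a median of −3.18. The miR-379 to miR-410 cluster was lower in 59 of 60, with a median of −3.51, and the miRNAs of Meg3 and Rian in 15 of 15, with a median of −3.79. A further 3 miRNAs of the locus, outside the list, were miR-3070-2-3p at −3.71, miR-3072-3p at −4.54 and miR-3072-5p at −3.36, each passing the test.

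MiR-541-5p was the most abundant of the region. It stood at 102818, 132004 and 53544 normalized counts in OV against 1015480, 935471 and 1142100 in d/d, with fl/fl at 187104, 174784 and 176663 (log2 −3.51, SE 0.26, limma adjusted p = 1.55e-06). MiR-127-3p, a placental and developmental miRNA, stood at 46380.5, 52270.5 and 22613 in OV and 286910, 278049 and 309264 in d/d (log2 −2.94, limma adjusted p = 3.93e-06). In both, OV4 had less than OV1 and OV2, and every d/d library was above every OV library.

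Large falls were seen in neighbouring hairpins. MiR-323-5p had 9.921, 20.6 and 2.2 in OV and 261, 331 and 352 in d/d (log2 −5.10, limma adjusted p = 1.7e-05). MiR-323-3p, from the same hairpin (109712508 to 109712593), had 474, 541.3 and 221 and 9529, 8630.3 and 8665 (log2 −4.54). The neighbouring miR-758-3p was at −4.67. MiR-1197-3p and miR-487b-5p, at −4.43 and −4.67, are among those that passed the minimum only through d/d.

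**Figure D3:**
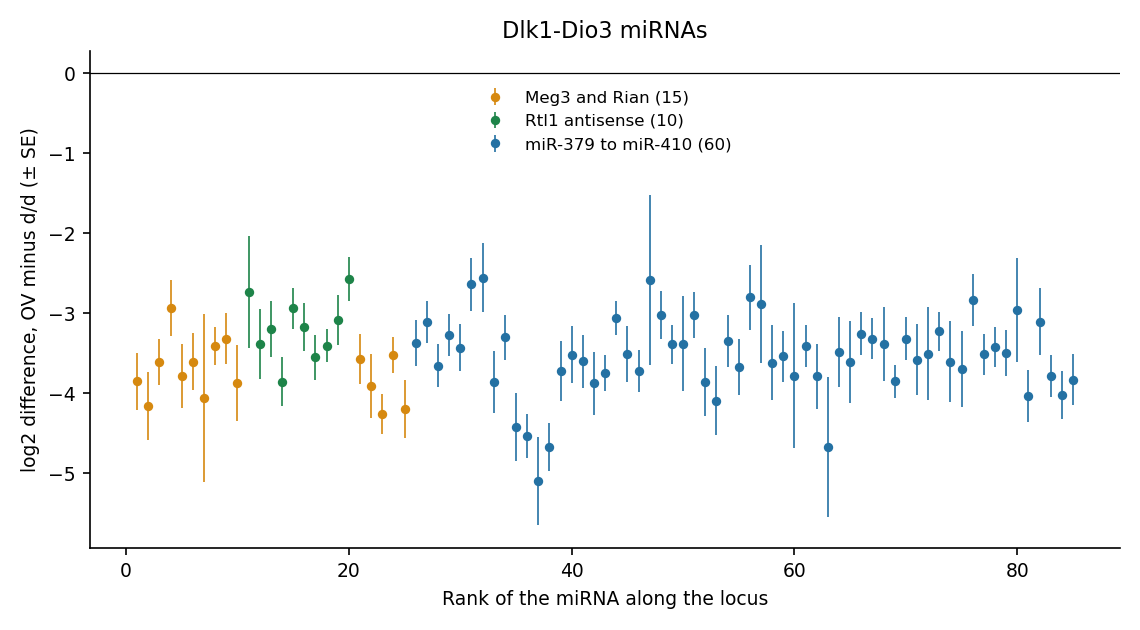
Log2 difference between OV and d/d MEF (vertical axis, bars ± SE from the limma fit) for the 85 miRNAs of the Dlk1-Dio3 list in their order along the chromosome (horizontal axis, rank of the hairpin). All points lie below 0, between −5.10 and −2.55, with those of miR-323 and miR-758 among the lower ones.

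Outside that region, 83 miRNAs were lower in OV. The largest fall of all members was that of miR-483-3p, made from an intron of the imprinted growth factor gene Igf2 (chromosome 7, 142654924 to 142654996). It had 3.97, 0 and 13.2 normalized counts in OV against 508, 442 and 373 in d/d, with fl/fl at 12.3, 26.3 and 22.4 (log2 −6.73, SE 0.752, limma adjusted p = 2.24e-05). Its other arm miR-483-5p had 11.9, 10.3 and 3.3 in OV and 294, 303 and 319 in d/d (log2 −5.16). Empty d/d MEF had 10.1 to 24.998 RPM of miR-483-3p, against 0 to 0.698 in OV and 19.6 to 30.3 in d/d. Of the 4 kept miRNAs of Igf2, H19 and Mest, only these 2 passed. MiR-335-5p and miR-335-3p, from an intron of Mest, had −0.43 and −0.42 with OV4 above the other OV libraries, and both passed without OV4 (adjusted p = 0.00296 and 0.000531).

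All 6 miRNAs of the miR-183 and miR-96 cluster, which is known from sensory cells, fell, with a median of −1.45 (5 of 6 lower in the spike-in table, median −0.89). Of all members 25.7% fell (18.3% in the spike-in table). MiR-183-5p stood at 41739, 54020.3 and 41151 in OV against 141964, 143447 and 172033 in d/d, with fl/fl at 97741, 85163 and 92549 (log2 −1.75, limma adjusted p = 1.64e-06). MiR-182-5p had a log2 difference of −1.12 and miR-96-5p of −1.10, and their fl/fl libraries lay near d/d.

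Of all members 25.7% fell and 26.7% rose (18.3% and 49.8% in the spike-in table). In the miR-181 family, known from lymphocyte development, 6 of 9 members fell and none rose (3 lower and 2 higher in the spike-in table). The fall was steepest for the pair made on chromosome 8, with miR-181c-3p at −2.59 and miR-181d-5p at 546, 438 and 488 in OV and 2039, 1886 and 1973 in d/d (log2 −2.01, limma adjusted p = 7.31e-07). The abundant guides miR-181a-5p and miR-181b-5p had 0.12 and 0.28 and did not pass.

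Single miRNAs that fell at least 4-fold included several chosen for mention after their values were seen. MiR-1964-3p, in an intron of Zfp84, had 128, 188 and 183 in OV against 1035, 1098 and 1175 in d/d, with fl/fl at 165, 147 and 142 (log2 −2.74, limma adjusted p = 6.59e-07). MiR-582-3p, in an intron of Pde4d, had 1608, 1739.6 and 997 in OV against 7489.9, 7467 and 8206 in d/d, with fl/fl at 819.5, 788 and 858 (log2 −2.45). MiR-6540-5p, in an intron of Gap43, had 82.3, 122 and 89.0 in OV against 525, 575 and 502.8 in d/d, with fl/fl at 41.9, 63.0 and 36.9 (log2 −2.46). In all 3 the fl/fl libraries sat with OV or beyond it, and d/d stood apart. MiR-149-3p and miR-149-5p, in an intron of Gpc1, fell by 2.77 and 1.80 on the log2 scale, miR-130b-5p by 2.86 and miR-1983 by 2.22.

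Of 12 kept signal-responsive miRNAs, which follow inflammatory, hypoxic or growth signals, 4 rose and 3 fell, a share near the background. MiR-146b-5p, known to damp NF-kappaB signalling, stood at 35960.0, 46935 and 58769 in OV against 8367, 7093 and 9403 in d/d, with fl/fl at 25741, 23304 and 24063 (log2 2.49, SE 0.173, limma adjusted p = 1.13e-06). MiR-146a-5p, its relative on another chromosome, had 4011, 3827 and 5297 in OV against 1331, 1157 and 1348 in d/d, with fl/fl at 1587, 1435 and 1534 (log2 1.76). For miR-146a-5p the fl/fl libraries were close to d/d, and for miR-146b-5p they lay between.

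Hypoxia-linked miR-210-3p was higher by 0.68 and miR-221-3p, which represses Cdkn1b, by 0.59. MiR-222-3p, with the same seed and the most abundant of this list, had 0.30 and did not pass. The CREB-responsive pair went the other way. MiR-212-5p had 191, 241 and 254 in OV against 834, 844 and 781 in d/d, with fl/fl at 668.1, 767 and 705 (log2 −1.85), and miR-132-5p and miR-132-3p fell by 1.02 and 0.60 on the log2 scale (in the spike-in table miR-132-3p was at −0.04).

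MiR-224-5p, from an intron of the X-linked gene Gabre, stood at 70342, 74146 and 72841 in OV against 20849, 20695 and 19164 in d/d, with fl/fl at 53148, 61619 and 56658 (log2 1.84, SE 0.0955, limma adjusted p = 1.66e-07). MiR-452-5p of the same intron was higher by 1.47. MiR-676-3p, from an intron of the X-linked gene Eda, had 5850.1, 7793 and 8605 in OV against 1692, 1844 and 1835 in d/d, with fl/fl at 2452, 3022 and 2702 (log2 2.03). Its opposite arm was higher by 2.40. On the X chromosome as a whole, 22 of 47 miRNAs were higher and 1 was lower, beside 26.7% and 25.7% of all members.

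The miR-378 entries, named after their values were seen, rose together, with OV4 below the other OV libraries. MiR-378a-3p, hosted by the metabolic coactivator gene Ppargc1b, stood at 27406, 31914 and 12424 in OV1, OV2 and OV4 against 4685, 4419 and 4988 in d/d, with fl/fl at 30838, 29228 and 31753 (log2 2.24, limma adjusted p = 5.46e-05). The near-identical entries miR-378b, miR-378c and miR-378d had 2.19, 2.53 and 2.27, with OV4 the lowest OV library in each, and reads can be split between these copies. OV4 still lay above every d/d library in all of them.

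**Figure D4:**
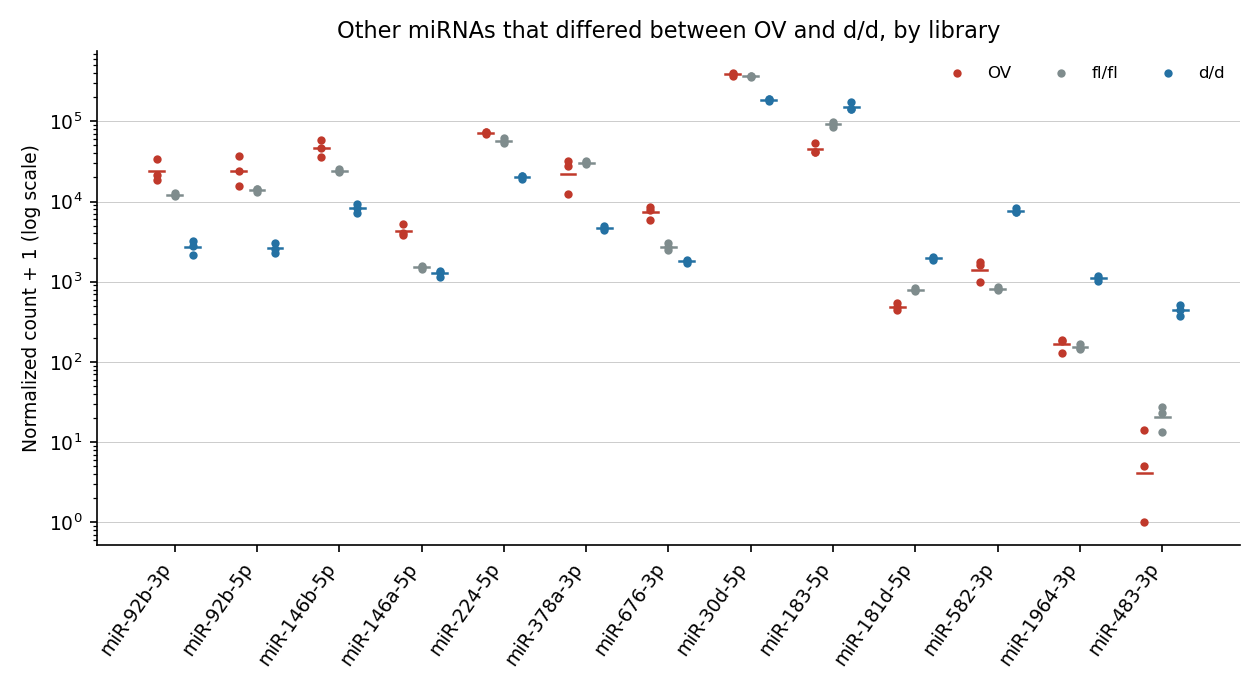
Normalized count + 1 (log axis) of 13 miRNAs from other loci in each MEF library, with points and bars as for the cluster products. OV lies above d/d without overlap for the 8 miRNAs on the left and below it for the 5 on the right, and fl/fl differs in which group it lies near.

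In the abundant miR-30 family 9 of 11 miRNAs rose and none fell, and the median was 0.49 (11 of 11 higher under spike-in scaling). Of all members 26.7% rose and 25.7% fell (49.8% and 18.3% under spike-in scaling). MiR-30d-5p stood at 390117, 398490 and 364745 in OV against 192658, 177950 and 187616 in d/d, with fl/fl at 360590, 372986 and 372452 (log2 1.05, limma adjusted p = 1.8e-06). MiR-30c-5p was higher by 1.23 and miR-30b-5p by 1.98.

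In the miR-23/24/27 clusters 7 of 11 rose and none fell, led by miR-23a-3p at 1.16 and miR-27a-3p at 1.11. Under spike-in scaling 11 of 11 rose. Of all members 26.7% rose and 25.7% fell (49.8% and 18.3% under spike-in scaling). Of 10 kept miR-26 and miR-29 miRNAs, families that MYC is known to repress, 5 rose and 1 fell (6 higher and none lower under spike-in scaling). MiR-26a-5p had 342567, 294760 and 335790 in OV and 178006, 162407 and 163002 in d/d (log2 0.95, limma adjusted p = 6.81e-06). MiR-29b-3p had 2832, 908 and 1150.2 in OV and 584, 765 and 203 in d/d, with OV1 far above the others (log2 1.67, adjusted p = 0.018), and did not pass without OV1 or without DEL3. The member that fell was the passenger arm miR-29b-1-5p at −0.54, which stood at 0.02 in the spike-in table.

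In the let-7 family, which restrains growth and is raised with differentiation, 9 of 21 miRNAs rose and 4 fell (15 and 1 in the spike-in table). Of all members 26.7% rose and 25.7% fell (49.8% and 18.3% in the spike-in table). Of the let-7 miRNAs that rose, 6 were 5p arms, the guides of this family, and the others were let-7k, let-7j and the 3p arm let-7f-2-3p. Let-7i-5p, with 0.84, was the most abundant of them, and let-7b-5p had 0.85 and let-7c-5p 0.60. All 4 that fell were 3p arms. Let-7c-1-3p had 13.9, 8.01 and 14.3 in OV and 86.7, 63.2 and 77.6 in d/d (log2 −2.58), while let-7b-3p and let-7d-3p, at −0.55 and −0.56, turned to 0.01 and 0.01 in the spike-in table. By seed, 7 of 10 miRNAs with GAGGUAG rose and none fell.

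The p53-responsive list rose in 6 of 9 cases with a median of 1.06 (7 of 9 in the spike-in table). Of all members 26.7% rose (49.8% in the spike-in table). Both arms of miR-34b and of miR-34c count as separate cases. MiR-34c-5p had 11296, 11795 and 12274 in OV and 5188, 5440.0 and 6333 in d/d (log2 1.06, limma adjusted p = 2.25e-05), with miR-34b-5p at 1.09, miR-192-5p at 1.21 and miR-194-5p at 1.25. MiR-34a-5p, the best known member, had −0.53 and did not pass (adjusted p = 0.245). MiR-449c-5p fell, from 32.7, 19.6 and 25.5 in d/d to 0, 3.43 and 6.59 in OV (log2 −3.03).

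MiRNAs of the Hox clusters moved in both directions, with 2 higher and 3 lower of 8, a share near the background. MiR-196a-5p had 7375, 6813 and 6735 in OV and 3685, 4062 and 3507 in d/d (log2 0.90), and miR-10b-5p had 448, 628 and 529 and 1852, 1719 and 2036 (log2 −1.81). The more abundant miR-10a-5p was lower by 0.54 on the log2 scale, and stood at 0.02 in the spike-in table.

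Markers of other cell types were checked beside these results. The summed mesenchymal and fibroblast miRNAs took 22.3% to 23.8% of reads in OV, 30.0% to 31.6% in d/d and 25.1% to 26.9% in fl/fl, and of 18 only miR-152-3p rose and miR-152-5p and miR-21a-5p fell, whereas 12 rose and none fell under spike-in scaling. MiR-143-3p, the smooth muscle and fibroblast miRNA, had −0.19 and did not pass. MiR-152-5p and miR-21a-5p, at −0.45 and −0.42, stood at 0.12 and 0.14 in the spike-in table. The summed neural markers were at 53593 to 69529.9 normalized counts in OV, 43193 to 46506 in d/d and 40551 to 44016 in fl/fl. Of these 5 of 6 rose and 1 fell, at −0.32, while 5 rose and none fell in the spike-in table. The shares over all members were 26.7% higher and 25.7% lower (49.8% and 18.3% in the spike-in table). The most abundant neural marker, miR-129-5p, had 2036, 2462 and 1674 RPM in OV and 1535, 1509 and 1536 in d/d. Its call was lost without DEL1. MiR-153-5p, in an intron of Ptprn2, had 55.6, 56.1 and 119 in OV, 28.6, 69.9 and 31.3 in fl/fl and no read in d/d, at least 30.7-fold higher in OV with 3 reads per d/d library as the limit. MiR-218-5p and miR-9-5p were higher by 1.28 and 0.82.

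The summed epithelial markers were at 166 to 202 normalized counts in OV, 65.4 to 98.8 in d/d and 279.8 to 296 in fl/fl, and 3 of 4 rose. Of the endothelial markers 2 of 2 rose, with miR-126a-3p at 0.99. Of all members 26.7% rose. None of the 3 kept haematopoietic markers passed. Among muscle miRNAs miR-206-3p was higher by 0.47 and miR-1a-3p did not pass, nor did the liver miRNA miR-122-5p. The 1 kept pluripotency miRNA, miR-292a-5p, had 14.88, 3.43 and 0 in OV and 27.7, 26.9 and 19.1 in d/d (log2 −2.61, limma adjusted p = 0.028). It did not pass in the spike-in table, or without any 1 of OV2, OV4, DEL1, DEL2 and DEL3. With fl/fl at 0.171 to 0.967 RPM, its mean over the OV and fl/fl libraries was under 10 normalized counts. It passed the minimum only through d/d. The totals of these lists are small beside the fibroblast list, and their part in the results was not tested.

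In other lists the share that passed was at or below the background in the table without spike-in scaling. Of the 41 kept miRNAs of the Sfmbt2 intron (miR-297, miR-466, miR-467 and miR-669), which are near-identical copies with 6 sets of entries that hold the same values, 2 were higher and 1 lower, and the median of −0.23 turns to 0.32 under spike-in scaling. In the cluster of miR-322 and miR-450a 4 of 11 rose, led by miR-450a-5p at 0.83 and miR-503-5p at 0.82, and under spike-in scaling 11 of 11 rose. The miR-15 and miR-16 list had 1 of 10 higher. The list of miR-99 and miR-100 with their cluster partners had none higher and 2 of 10 lower, but 5 higher and none lower under spike-in scaling, and miR-99a-5p at −0.80 did not pass in the spike-in table (−0.24). Of 8 Microprocessor-independent miRNAs, which skip cutting by Drosha, 1 rose and 3 fell. MiR-1224-5p rose, from 11.4, 13.1 and 4.25 in d/d to 83.3, 73.2 and 109 in OV (log2 3.18), and miR-484 and miR-320-3p at −0.50 and −0.36 stood at 0.07 and 0.21 in the spike-in table.

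**Figure D5:**
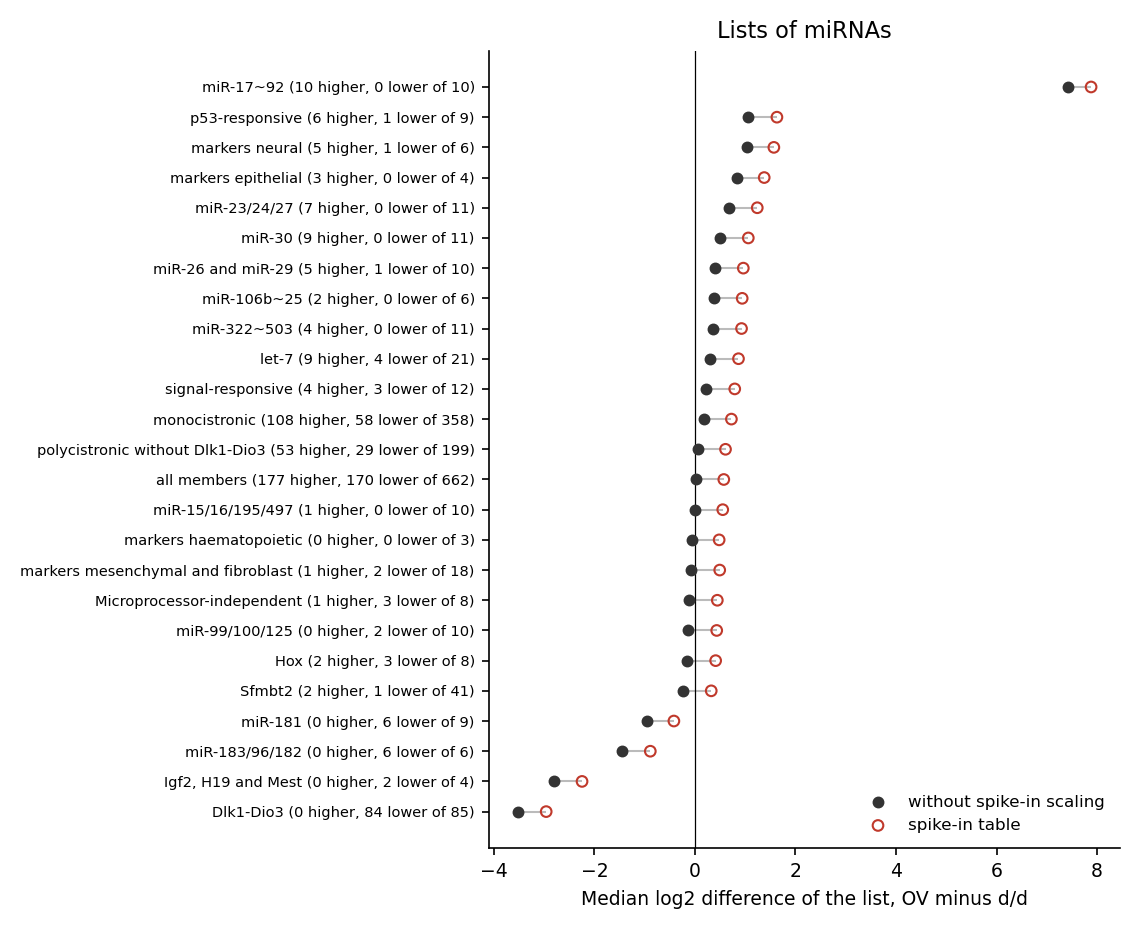
Median log2 difference between OV and d/d MEF (horizontal axis) of each list with at least 3 kept miRNAs, filled points from the table without spike-in scaling and open points from the spike-in table, with the counts called higher and lower beside each name. The miR-17~92 list is at 7.42 and the Dlk1-Dio3 list at −3.52, against 0.02 for all members, and every open point lies to the right of its filled point.

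Since miR-17~92 is a polycistron, the other miRNAs were divided by whether another hairpin of the same strand starts within 10 kb. Of 358 miRNAs from single hairpins 108 were higher and 58 lower, with a median of 0.18 (201, 22 and 0.73 under spike-in scaling). Of 196 polycistronic miRNAs outside the Dlk1-Dio3 region, 53 were higher and 26 lower, with a median of 0.08 (111, 13 and 0.62 under spike-in scaling). Outside both loci as a whole, 167 of 564 miRNAs were higher and 83 lower, with a median of 0.14 (320, 34 and 0.70 under spike-in scaling). The background of 52.4% includes the Dlk1-Dio3 region and miR-17~92, so these counts are not set against it. With Dlk1-Dio3 the polycistronic counts were 53 and 112 of 283, so the lower calls among them came mostly from that region.

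Both arms were measured for 175 hairpins. Both arms were higher in 29 and both lower in 48, 1 arm passed in 46, and neither in 50. Without miR-17~92 and the Dlk1-Dio3 region, 136 hairpins were left, with both arms higher in 26, both lower in 13, 1 arm called in 45 and neither in 50. Under spike-in scaling these 136 had both arms higher in 69, both lower in 7, 1 arm called in 35 and neither in 25. The split between higher and lower hairpins thus depends on the scaling. Opposite calls were made for 2 hairpins, let-7b and miR-152, and for none under spike-in scaling, where let-7b-3p and miR-152-5p stood at 0.01 and 0.12. The call of miR-152-3p was also lost without OV2, OV4, FL5, DEL1 or DEL2, with no minimum, and with OV and d/d libraries only. By chromosome, 91 of 102 miRNAs on chromosome 12 were lower, most of them from Dlk1-Dio3. On chromosome 15, 18 of 30 were higher and 2 lower, with a median of 0.72. Of all members 26.7% were higher and 25.7% lower. With spike-in scaling, 25 of these 30 passed in either direction, beside 68.1% of all members, and their median was 1.29. The naming rule does not cover chromosomes, so these counts were not tested as a set.

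Depth set how small a difference could be called. Among miRNAs with means of 10 to 100 normalized counts 38.1% passed, with a median SE of 0.32, and among those above 10000 it was 68.1%, with a median SE of 0.13. Low miRNAs that did not pass are therefore less tightly bounded than abundant ones.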

How the data were processed

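Small RNA libraries of total RNA with added spike-ins were made from gel-purified small RNAs with the NEBNext small RNA kit, per the labels' protocols. Each deposited table gives signals: the authors scaled the number of reads of every mature miRNA by a factor for its library, without spike-ins in 1 table and with them in the other. The submitters' processing notes name DESeq2 but no version of it. As for the aligner, the counter and the genome build, none is given in the sources used here. The values of every library were whole multiples of 1 step (100% within 0.001 of a whole read), so whole reads were recovered, and total reads per library give the depth. Not used were 42 columns, among them transformed values and the miR-290~295 columns. The OV and fl/fl columns show their group but not which replicate they are.

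Members had to reach 10 normalized counts on average in the 9 MEF libraries. OV minus d/d was tested with limma 3.58.1 in R 4.3.3 on log2(normalized count + 1) with a mean-variance trend, group as the only term and the spread shared by all 9 libraries. P-values were adjusted by Benjamini-Hochberg over 662 miRNAs and called at 0.05. Fold changes of low miRNAs are understated on this scale. The script was tested on simulated data. As alternatives, edgeR 4.0.16 and DESeq2 1.42.0 were run on recovered reads, beside the spike-in table, re-centred medians, other pseudocounts and minimums, only 6 libraries, a replicate block and each library left out. Bounds against a group at 0 were set at 3 reads per library. The cluster total was compared with a two-sided exact permutation test.

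The naming rule took in every miR-17~92 product. It also took the 10 largest rises and falls among called miRNAs with a mean of at least 100 and no overlap. From each list it took up to 4 members with the smallest adjusted p and the most abundant member. The 10 most abundant miRNAs and relatives with a cluster seed completed it. The text gives only part of the miRNAs under this rule. Some miRNAs outside the rule were named after their values were seen. The members and lists were chosen with earlier results of these data known. Entries with identical values count as 1 in this rule. Hairpin positions come from RefSeq (GRCm38.p6) and GENCODE M21 by miRNA name and were found for 658 of 662 members. Host genes come from GENCODE M21.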

Additional observations from a re-analysis of the deposited data

Results flagged for a closer look

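For 6 lists the summed level differed between OV and d/d in opposite directions in MEF and in B cells, where the MEF libraries of the 2 groups did not overlap. Only lists with at least 3 miRNAs kept in MEF and 3 listed in B cells were considered. Below that size, the muscle marker total, with 2 kept miRNAs, was at 0.47 in MEF and −2.27 in B cells, and the X-linked list of miR-465 to miR-881, with no kept miRNA, at −1.83 and 1.23. B cells have 1 library per group and a table normalized separately, so the difference between the cell types was not tested. The total of the Hox list was at a log2 difference of −0.46 in MEF, without spike-in scaling, and 0.94 in B cells. The MEF direction of the Hox list depends on the scaling. With spike-in scaling, 5 of its 8 kept miRNAs were higher and 1 lower, with a median of 0.41. Its most abundant member, miR-10a-5p, then changed sign and did not pass. The total of the miR-106b~25 list was at 0.52 in MEF and −0.50 in B cells. The miR-23/24/27 total was at 0.70 in MEF and −0.20 in B cells, and the signal-responsive total at 0.71 and −0.52. The epithelial marker total was at 1.09 in MEF and −0.37 in B cells, and the neural marker total at 0.41 and −0.0705. A single library per B-cell group gives no measure of spread for these values.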

How the results depend on the processing

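The count of miRNAs that passed was 347 and ran from 305 to 343 when 1 library was left out. It was 350 with edgeR, 350 with DESeq2, 350 with re-centred medians, 346 and 349 with pseudocounts of 0.5 and 5, and 312 with OV and d/d libraries only, while with no minimum 177 were higher and 186 lower, against 124 and 116 with a minimum mean of 100. None of these settings, nor the spike-in table, called any of the 347 in the opposite direction. In the spike-in table the count of higher miRNAs moved from 177 to 330, and 7 miRNAs named by the rule that were lower turned to values above 0: miR-10a-5p 0.0233, miR-484 0.0669, miR-320-3p 0.21, miR-467c-5p 0.12, miR-21a-5p 0.14, miR-152-5p 0.12 and miR-125b-1-3p 0.11. None of the 7 passed there. Of the other miRNAs in the text, let-7b-3p, let-7d-3p and miR-29b-1-5p also turned, to 0.0129, 0.00847 and 0.0217, and did not pass. Re-centred medians gave 208 higher and 142 lower. For libraries with the same number in the column names, the correlation of deviations between OV and d/d was 0.20 for number 1 and −0.10 for number 2. It was 0.13 for OV1 with DEL2 and −0.18 for OV2 with DEL1. So few values cannot show whether the numbers pair libraries. With a replicate block by the numbers in the column names 307 miRNAs passed, 151 higher and 156 lower. Of 108 calls among miRNAs under the naming rule, 8 were lost. Low counts limit the d/d level of the miR-17~92 products and of miR-153-5p.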
